A study of Mus musculus with 5 samples.

Results

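Levels of 9 long non-coding RNAs (lncRNAs) were followed in sorted hematopoietic stem cells (HSCs): Malat1, Neat1 and Kcnq1ot1, which act in the nucleus, and Gas5, Snhg1, Snhg3, Snhg6, Snhg8 and Snhg12, whose introns carry small nucleolar RNAs (snoRNAs). They were chosen by name, as 9 of the 55335 genes of the deposited table, and all 9 were expressed highly enough to be tested. The table holds bulk RNA sequencing of 5 libraries from bone marrow of mice at 3 weeks of age. Each was made from a small pool of HSCs sorted as KSL CD48- CD150+ cells (lineage-negative, Sca-1-positive, Kit-positive, with the CD150 marker). The wild-type group had 3 libraries. The group labelled RankCre-ki had 2, from mice of genotype RankCre-ki/wt;Csf1r fl/-, in which Cre is expressed from the Rank gene (Tnfrsf11a) and the receptor gene Csf1r has a floxed and a null allele. The study describes the Cre as acting in embryonic macrophages but sparing other blood cells, which leaves the mice without such macrophages, without osteoclasts, and with dense bone. The HSCs themselves are not described as a target of the Cre, and the comparison asks how HSCs differ when they develop without these cells.

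The library names fall into 2 series. Name series 1 is the pair formed by replicate 1 of wild-type and replicate 2 of RankCre-ki, while the other 3 libraries form name series 2. The study's methods describe 2 tagmentation kits used for sets of the same composition, and reading the name series as these sets is an inference. At least 1 TPM (a unit of transcript abundance, scaled to a fixed total, that gives the share of the length-corrected transcripts of a library) was found for 9021 to 11084 genes in the wild-type libraries and for 12801 and 16386 genes in the RankCre-ki libraries, and mitochondrially encoded genes held 14.7 to 21.02% against 10.7 and 8.21% of all TPM. All 12 HSC markers examined were detected, with a summed level of 617 to 1214 TPM in wild-type and 999 and 1750 TPM in RankCre-ki libraries. The sum of 7 erythroid markers was 139 to 190 TPM in wild-type and 315 and 865 TPM in RankCre-ki libraries. The sum of 9 myeloid markers was 235 to 269 TPM against 131 and 337 TPM, with Adgre1 and Elane at 0 throughout. Lyz2 made up most of that sum, while S100a8 was at 0.0677, 0 and 0 TPM in wild-type against 8.31 and 12.9 TPM. Sums of 8 lymphoid markers (1.89 to 45.8 TPM), 5 megakaryocyte markers (81.5 to 175 TPM) and 9 stromal and endothelial markers (58.5 to 96.5 TPM, with Sp7 at 0) overlapped between the groups. Within the lymphoid list Klrb1c was at 0.0516, 0 and 0 TPM in wild-type against 4.398 and 12.8 TPM. Nkg7, of the same list, was at 0, 35.6 and 45.7 TPM against 26.2 and 22.3 TPM. Csf1r was at 2.39, 0 and 0.234 TPM in wild-type and at 17.5 and 6.46 TPM in RankCre-ki libraries, so its level ran against the label. The Y-linked gene Eif2s3y was at 62.5 TPM in RankCre-ki replicate 2, which the labels call female, at 41.6 TPM in wild-type replicate 1 (labelled male), and at 0.288 TPM or less in the other libraries. Name series 1 and Y-linked expression therefore cannot be told apart. How far any of these differences enters the levels of the lncRNAs was not tested.

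Malat1 lies in nuclear speckles, bodies rich in splicing factors, and Neat1 is the scaffold around which paraspeckles assemble. Kcnq1ot1 is transcribed antisense within Kcnq1 from the paternal chromosome and silences neighboring imprinted genes there. The Snhg genes and Gas5 are transcribed for the snoRNAs in their introns, which guide methylation or pseudouridylation of ribosomal RNA after release from the spliced intron. The remaining spliced RNA is short-lived, in part because it carries a 5′ terminal oligopyrimidine start like ribosomal protein mRNAs and is removed by nonsense-mediated decay once it is translated. In growth-arrested cells spliced Gas5 accumulates, which gave the gene its name (growth arrest-specific 5).

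The starts of the host genes are shown first, because a pyrimidine tract at the start is what these genes share with ribosomal protein genes. RefSeq promoters (GRCm38.p6) were matched for 5 of the 6 hosts, and each line gives 60 bases, 5′ to 3′ on the gene's own strand, in which base 31 is the annotated start. Capitals mark a run of at least 5 pyrimidines (C or T) that opens with C. Such a run was found within these windows for 4 of the 5 hosts, against 59.1% of 32851 RefSeq promoters read the same way, so its presence is common.
Gas5 (chr1:161035136-161035195, plus strand): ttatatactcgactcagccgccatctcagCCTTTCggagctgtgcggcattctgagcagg
Snhg1 (chr19:8723457-8723516, plus strand): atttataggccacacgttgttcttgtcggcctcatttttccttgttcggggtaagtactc
Snhg3 (chr4:132353657-132353716, minus strand): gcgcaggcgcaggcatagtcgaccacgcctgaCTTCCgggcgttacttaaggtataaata
Snhg8 (chr3:123508307-123508366, minus strand): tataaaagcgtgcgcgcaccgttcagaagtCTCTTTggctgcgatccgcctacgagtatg
Snhg12 (chr4:132308648-132308707, plus strand): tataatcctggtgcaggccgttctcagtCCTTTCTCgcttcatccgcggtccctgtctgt
In Gas5 and Snhg12 the run covered the annotated start, in Snhg8 it began at that base, and in Snhg3 it began just after it. Gas5 has another annotated start upstream, whose window held no such run. A match in letters does not show where transcription began in these cells.

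The libraries were primed with oligo(dT), so stretches of A inside a transcript are of interest for the nuclear RNAs. Mature Malat1 is known to be cut at its 3′ end by RNase P and to end in an A-rich stretch encoded in the genome in place of a poly(A) tail. Below, capitals mark the longest run of A in the longest GENCODE M21 transcript, with 15 bases on each side.
Malat1: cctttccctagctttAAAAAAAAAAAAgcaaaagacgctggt
Kcnq1ot1: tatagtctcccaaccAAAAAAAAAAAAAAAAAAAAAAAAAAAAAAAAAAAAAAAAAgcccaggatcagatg
Snhg12: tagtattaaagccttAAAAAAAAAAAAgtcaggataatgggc
The Malat1 run has 12 bases and begins at base 6674 of 6983. Kcnq1ot1, a single unspliced exon of 93092 nt, holds 10 runs of 10 or more A, the longest of 41. Snhg12 holds 1 such run, of 12 bases. The longest run was 7 in Neat1, and 4 or 5 in the other hosts, and 13.5% of 31794 genes have a run of 10 or more. Whether the RNAs were primed at these runs was not tested.

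Levels of the 9 lncRNAs spanned more than 3 orders of magnitude within the same cells. The medians over the 5 libraries were 11214 TPM for Malat1, 4333 TPM for Gas5, 268 TPM for Snhg8, 264 TPM for Snhg3, 177 TPM for Snhg6, 76.7 TPM for Snhg1, 31.3 TPM for Snhg12, 16.95 TPM for Neat1 and 2.69 TPM for Kcnq1ot1. Malat1 ranked between place 5 and 17 among all genes of a library, and Gas5 between 13 and 37. Neighbors in this order were in the same order in all 5 libraries for Malat1 over Gas5, Gas5 over Snhg8, Snhg6 over Snhg1, Snhg1 over Snhg12 and Snhg12 over Neat1. Snhg8 exceeded Snhg3 in 2 of 5 libraries, Snhg3 exceeded Snhg6 in 4 and Neat1 exceeded Kcnq1ot1 in 4, so none of these pairs kept 1 order throughout. Together the 9 genes made up 1.80, 1.905 and 2.06% of wild-type TPM and 1.65 and 1.32% of RankCre-ki TPM, most of it from Malat1 and Gas5.

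**Figure D1:**
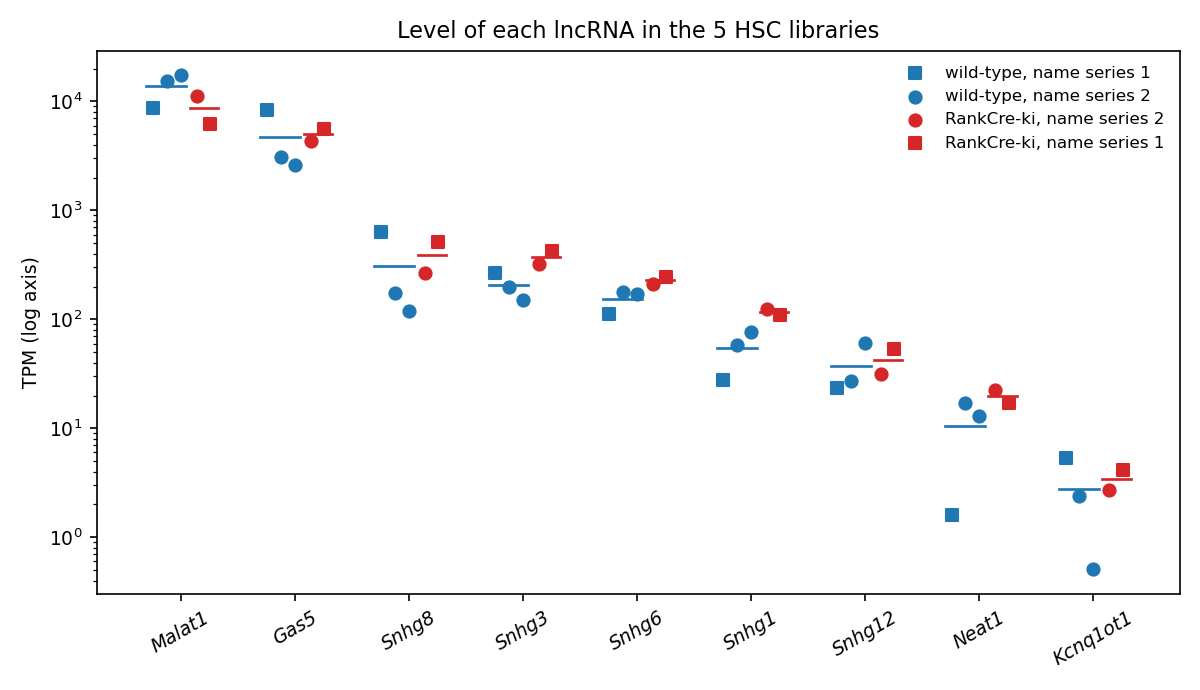
Level of each lncRNA in each library (TPM, log axis), with wild-type libraries in blue, RankCre-ki libraries in red, squares for name series 1 and circles for name series 2. Short bars are group means; Malat1 and Gas5 are the highest in every library, and Snhg1, Snhg3 and Snhg6 have both red points above all blue points.

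An exact rank-sum test of 3 against 2 libraries (two-sided) has 0.2 as its smallest p, so the groups were compared with limma's moderated test on log2(TPM + 1) across all 13981 genes that reached 1 TPM in 2 or more libraries, with Benjamini-Hochberg adjustment. The call needed an absolute log2 fold change over 2 and an adjusted p no higher than 0.1. By it 0 of the 9 lncRNAs passed, and 0 of all genes passed (0%), the smallest limma adjusted p being 0.521. The study, which tested counts with another method at the same limits, did report genes past them. At an unadjusted limma p under 0.05 also 0 of the 9 passed, against 886 higher (6.34%) and 74 lower (0.529%) genes among all tested. The median log2 fold change of all genes was 0.52, with 72.3% of genes above 0, and that of the 9 lncRNAs was 0.60. The shift of all genes depended on the scaling: with median-ratio scaling it was 0.16, and quantile normalization gave -0.09. The median of the 9 lncRNAs was 0.10 and 0.62 under the same settings, so its distance from that of all genes depended on the scaling too. In sorted bulk samples fewer cells of a type and less RNA per cell cannot be told apart. Because separate mice are not stated for each library, the p-values measure only the spread between these libraries.

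Malat1 (ENSMUSG00000092341, chromosome 19, 5795690 to 5802672, minus strand, GRCm38) was the only one of the 9 whose mean TPM as deposited was lower in the libraries labelled RankCre-ki. Wild-type replicates 1 to 3 held 8619, 15313 and 17328 TPM, and RankCre-ki replicates 1 and 2 held 11214 and 6161 TPM. Values below are given in this order. The groups overlapped, since the first wild-type library lay between the RankCre-ki libraries. Group means were 13754 ± 4559 TPM (SD, n = 3) for wild-type and 8687 ± 3573 TPM (SD, n = 2) for RankCre-ki. Its log2 fold change (± SE) was -0.66 ± 0.47, or -1.18 relative to the median of all genes (limma p of 0.198, adjusted p of 0.905). Within name series 1 it was lower by a log2 difference of -0.48 and within series 2 by -0.54, and 12.9% of all tested genes were lower in both series. Both libraries of name series 1 lay below the other 3, as they did for 15.9% of genes.

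On the opposite strand inside Malat1 the annotation places Gm37376 (ENSMUSG00000102349, chromosome 19, 5801941 to 5802393, plus strand), a locus of 453 nt of type TEC, a model still to be experimentally checked. Its level was 4198, 7779 and 9088 TPM in wild-type and 5849 and 3324 TPM in RankCre-ki libraries. The ratio of Gm37376 to Malat1 was 0.487, 0.508 and 0.524 in wild-type and 0.522 and 0.540 in RankCre-ki libraries. Its coefficient of variation was 3.83%, against 39.3% for Malat1 itself, so the pair kept nearly 1 proportion in all libraries. The study's methods describe tagmentation of amplified cDNA and name no step that keeps strand. The use of strand in the quantification is not stated, and without strand the reads of the pair cannot be told apart. Summed, the pair averaged 20775 TPM in wild-type and 13274 TPM in RankCre-ki libraries.

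**Figure D2:**
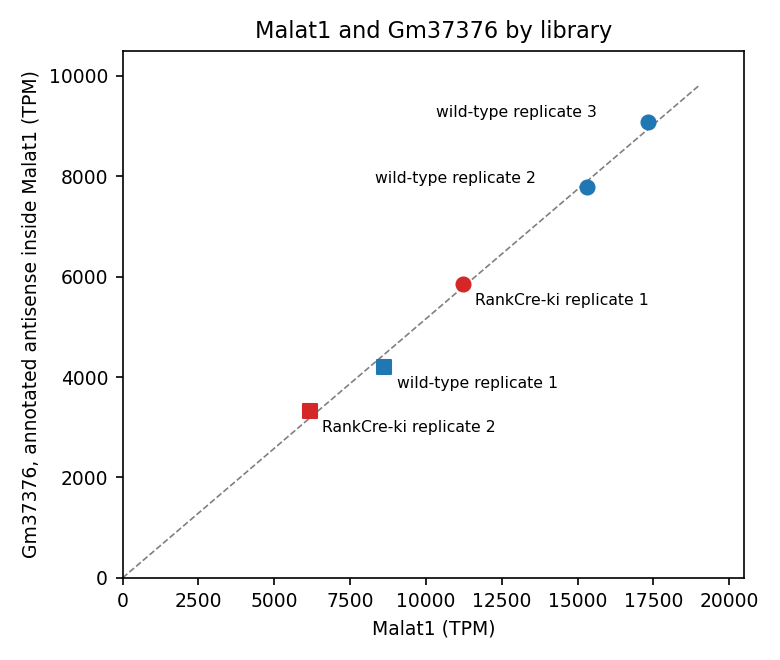
Level of Gm37376 against Malat1 in each library (TPM, linear axes), with wild-type in blue, RankCre-ki in red, squares for name series 1 and circles for series 2; the dashed line has the mean ratio of 0.516 as its slope. All 5 libraries lie close to the line, with ratios from 0.487 to 0.540.

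Neat1 (ENSMUSG00000092274, chromosome 19, 5824708 to 5845478, minus strand) is the neighbor of Malat1, with 22035 nt between them. Its level was 1.59, 17.2 and 12.9 TPM in wild-type and 22.2 and 16.95 TPM in RankCre-ki libraries. Wild-type replicate 1 was low and the other 4 libraries lay close together. Group means were 10.6 ± 8.06 TPM (SD, n = 3) for wild-type and 19.6 ± 3.74 TPM (SD, n = 2) for RankCre-ki. The log2 fold change (± SE) was 1.23 ± 1.19 (limma p of 0.332, adjusted p of 0.945). The difference was 2.79 within name series 1, which holds the low library, and 0.55 within series 2. The gene-level value joins the short and the long Neat1 isoform, of which the long one builds paraspeckles. Malat1 exceeded Neat1 5405-, 889- and 1346-fold in wild-type and 504- and 363-fold in RankCre-ki libraries, so the neighbors did not keep a fixed proportion.

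Kcnq1ot1 (ENSMUSG00000101609, chromosome 7, 143203458 to 143296549, minus strand) had the lowest median of the 9 lncRNAs. Its level was 5.37, 2.39 and 0.511 TPM in wild-type and 2.69 and 4.16 TPM in RankCre-ki libraries. The groups overlapped, and the log2 fold change (± SE), which quantile normalization turned to -0.98, was 0.45 ± 1.20 (limma p of 0.718, adjusted p of 0.992). Kcnq1, the potassium channel gene that surrounds it, was detected in wild-type replicate 3 only, with 0.708 TPM. Of 11 genes of this imprinted cluster 7 were tested, 0 passed at a p under 0.05, and their median log2 fold change was -0.05. The highest of them were Cd81, a tetraspanin of the cell surface, at 591, 1291 and 1423 TPM in wild-type against 928 and 480 TPM in RankCre-ki libraries, and Tspan32 at 251, 291 and 409 TPM against 286 and 165 TPM.

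Gas5 (ENSMUSG00000053332, chromosome 1, 161034422 to 161038539, plus strand) was the most abundant host. Its level was 8311, 3076 and 2638 TPM in wild-type and 4333 and 5637 TPM in RankCre-ki libraries. The libraries of name series 1 were the highest of each group and the groups overlapped. Group means were 4675 ± 3157 TPM (SD, n = 3) for wild-type and 4985 ± 922 TPM (SD, n = 2) for RankCre-ki. The log2 fold change (± SE) was 0.28 ± 0.54 (limma p of 0.619, adjusted p of 0.990). The direction turned with median-ratio scaling (-0.23) and differed between the series, with -0.56 in series 1 and 0.61 in series 2. The ratio of Malat1 to Gas5 was 1.04 and 1.09 in the libraries of series 1 and 2.59 to 6.57 in those of series 2.

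Snhg8 (ENSMUSG00000104960, chromosome 3, 123507552 to 123508404, minus strand) followed the same order. Its level was 630, 176 and 119 TPM in wild-type, against 268 and 513 TPM for RankCre-ki, giving a log2 fold change (± SE) of 0.65 ± 0.72 (limma p of 0.397, adjusted p of 0.959). Without wild-type replicate 1, where Snhg8 was highest, the log2 fold change was 1.35 (limma p of 0.0244, adjusted p of 0.369). Gas5, Snhg8 and Kcnq1ot1 were higher in both libraries of name series 1 than in the other 3, as were 17.1% of all genes. For these genes the series separated the libraries and the genotype did not.

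Snhg1, Snhg3 and Snhg6 were higher in both RankCre-ki libraries than in all wild-type libraries, 3 of the 9 lncRNAs against 18.8% of all tested genes. After median-ratio scaling the number was 1, Snhg1 (12.2% of genes), and without wild-type replicate 1 it was 6 (28.7% of genes). Of the 9 lncRNAs 0 lay below all wild-type libraries, against 3.71% of genes. Snhg1 (ENSMUSG00000108414, chromosome 19, 8723475 to 8726443, plus strand) was at 27.99, 58.5 and 76.7 TPM in wild-type and at 125 and 109 TPM in RankCre-ki libraries. Group means were 54.4 ± 24.6 TPM (SD, n = 3) for wild-type and 117 ± 11.0 TPM (SD, n = 2) for RankCre-ki. The log2 fold change (± SE) was 1.20 ± 0.61 (limma p of 0.0835, adjusted p of 0.841). Relative to the median of all genes the difference was 0.69. The summed erythroid markers and the number of genes detected were likewise higher in both RankCre-ki libraries, and their part in these values was not tested.

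Snhg3 (ENSMUSG00000085241, chromosome 4, 132348014 to 132353686, minus strand), host of the snoRNAs Snora73a and Snora73b, was at 264, 200.2 and 152 TPM in wild-type and at 324 and 425 TPM in RankCre-ki libraries. The lowest RankCre-ki library lay just above the highest wild-type library. Group means were 205 ± 56.0 TPM (SD, n = 3) for wild-type and 374 ± 71.5 TPM (SD, n = 2) for RankCre-ki. The log2 fold change (± SE) was 0.89 ± 0.44 (limma p of 0.0778, adjusted p of 0.823). Snhg3 overlaps the first part of Rcc1, a gene on the same strand that encodes the exchange factor of the GTPase Ran, and exons of all 5 Snhg3 transcripts overlap that gene. Rcc1 was at 0.0928, 0.375 and 6.91 TPM in wild-type and at 17.4 and 27.3 TPM in RankCre-ki libraries, and the antisense lncRNA Gm17300 was at 0, 0 and 3.73 TPM against 17.7 and 12.6 TPM. Both were highest in the RankCre-ki libraries, as Snhg3 was, at far lower levels, and their part in its value was not tested.

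Snhg6 (ENSMUSG00000098234, chromosome 1, 9941959 to 9944118, minus strand) was the steadiest of the 9 lncRNAs. It was at 113, 177 and 169.8 TPM in wild-type and at 212 and 247 TPM in RankCre-ki libraries. Group means were 153 ± 35.03 TPM (SD, n = 3) for wild-type and 229 ± 24.6 TPM (SD, n = 2) for RankCre-ki. The log2 fold change (± SE) was 0.60 ± 0.45 (limma p of 0.212, adjusted p of 0.916). Relative to the median of all genes its difference was 0.09. Snhg1, Snhg3, Snhg6 and Neat1 were higher in the RankCre-ki library in both name series, as were 44.5% of all genes.

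Snhg12 (ENSMUSG00000086290, chromosome 4, 132308623 to 132311024, plus strand) lies 36989 nt from Snhg3 on the other strand. Its level was 23.5, 27.3 and 60.1 TPM in wild-type and 31.3 and 53.1 TPM in RankCre-ki libraries. The groups overlapped, and the log2 fold change (± SE) was 0.26 ± 0.71 (limma p of 0.723, adjusted p of 0.992), and the difference was 1.15 in name series 1, -0.37 in series 2 and -0.23 after median-ratio scaling.

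**Figure D3:**
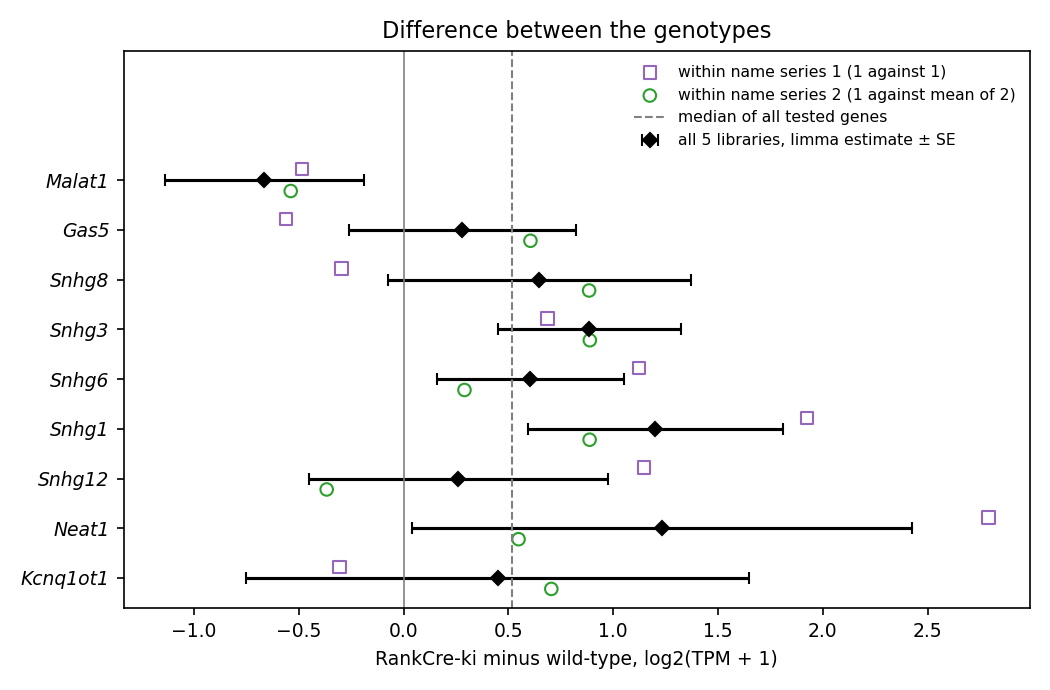
Difference of each lncRNA between RankCre-ki and wild-type libraries on the log2(TPM + 1) scale, with its standard error as bars, the differences within name series 1 and series 2 as separate symbols, and the median of all tested genes (0.52) as a dashed line. Malat1 is the only one below 0 with TPM as deposited, where Gas5 and Snhg12 fall below 0 after median-ratio scaling and Kcnq1ot1 after quantile normalization, and the differences within the series lie on opposite sides of 0 for Gas5, Snhg8, Snhg12 and Kcnq1ot1.

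The hosts as a group were dominated by Gas5. Summed over the 6 hosts the level was 9369, 3715 and 3216 TPM in wild-type and 5294 and 6984 TPM in RankCre-ki libraries, and without Gas5 it was 1058, 639 and 578 TPM against 960.2 and 1347 TPM. The groups overlapped in both sums. The SD of log2(TPM + 1) over the 5 libraries was 0.42 for Snhg6, 0.58 for Snhg3 and Snhg12, 0.61 for Malat1, 0.67 for Gas5, 0.79 for Kcnq1ot1, 0.84 for Snhg1, 1.01 for Snhg8 and 1.28 for Neat1. The median over the 7129 genes averaging 10 TPM or more was 0.97, so only Snhg8 and Neat1 varied more than the median gene. Of these genes 9.68% varied less than Snhg6.

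The snoRNA genes within the hosts are the other product of the same transcripts. GENCODE places 27 snoRNA genes of 60 to 205 nt inside the 6 hosts, with 10 in Gas5, 8 in Snhg1, 5 in Snhg12, 2 in Snhg3 and 1 each in Snhg6 and Snhg8, all on the strand of the host. Some are listed under 2 identifiers, as Snord80 and Snora16a are. A box C/D snoRNA, the type that guides methylation, carries box C near its 5′ end and box D near its 3′ end, and an H/ACA snoRNA, the type that guides pseudouridylation, carries ACA before its last 3 bases. The examples below show both types, with these boxes in capitals (TGATGA and CTGA, or ACA), read on the host's strand from GRCm38.
Snord87 (in Snhg6, chr1:9942463-9942549, minus strand): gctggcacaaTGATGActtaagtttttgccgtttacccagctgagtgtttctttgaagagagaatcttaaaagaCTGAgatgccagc
Snord47 (in Gas5, chr1:161038082-161038158, plus strand): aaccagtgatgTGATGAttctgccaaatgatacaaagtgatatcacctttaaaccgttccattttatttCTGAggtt
Snora24 (in Snhg8, chr3:123507937-123508066, minus strand): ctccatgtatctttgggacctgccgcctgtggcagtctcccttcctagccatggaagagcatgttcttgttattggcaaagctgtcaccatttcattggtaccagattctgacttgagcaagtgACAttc
Both boxes of the C/D type were found in 16 of the 27, against 24.0% of the 1507 snoRNA genes in the annotation. ACA before the last 3 bases was found in 7, against 18.3%. The gene listed as Mir5117, within Gas5, is in both counts.

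Of the 27 snoRNA genes 18 were at 0 in all 5 libraries, and 0 reached 1 TPM in all of them, although their hosts were detected in every library. Snord87 was the exception in level, at 0, 82.4 and 121 TPM in wild-type and 46.9 and 22.6 TPM in RankCre-ki libraries, while its host Snhg6 was at 113 to 247 TPM. It was detected in the 3 libraries of name series 2 at a higher level than in the 2 of series 1. The gene listed as Mir5117, of type snoRNA within Gas5, reached 33.1 TPM in wild-type replicate 1 but stayed at 0 in the others. Snora73b in Snhg3 was at 1.37, 0 and 0.599 TPM against 0 and 9.36 TPM. In all, 11 of 135 values of these genes reached 1 TPM. Mature snoRNAs have no poly(A) tail for an oligo(dT) primer, and 25 of the 27 genes overlap an exon of some host transcript, so reads of the host and of these snoRNAs cannot be told apart. The other 2 are Snord87 and Snora73b, which overlap no annotated exon of their host, and which RNA their reads came from was not tested.

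**Figure D4:**
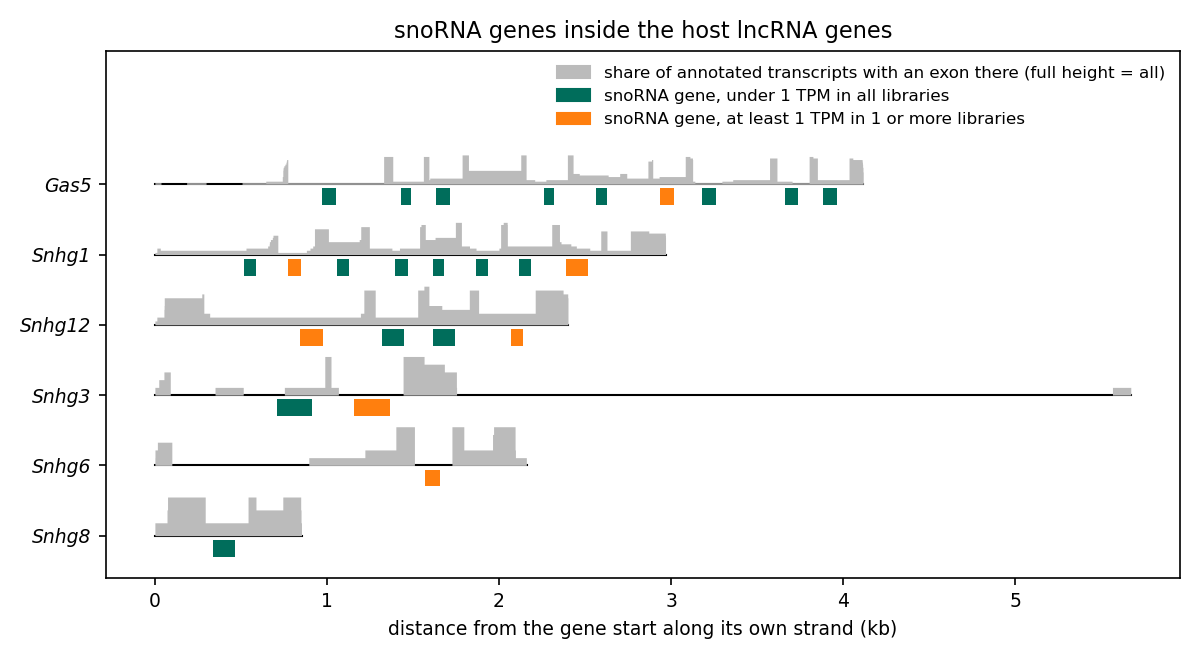
Maps of the 6 host genes, drawn to scale from the gene start along the gene's own strand (kb), with grey height for the share of annotated transcripts that have an exon at that position and blocks below the line for the 27 nested snoRNA genes, some of which coincide. Orange blocks mark the 7 snoRNA genes with at least 1 TPM in 1 or more libraries, and the others stayed under 1 TPM.

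Other lncRNAs and proteins of the same pathways are given for context, and in each of these lists 0 genes passed the threshold. Of 15 rows of other snoRNA-host lncRNAs 2 were higher at a p under 0.05 (6.34% of all genes) and 0 lower (0.529%), with a median log2 fold change of 1.35 that was 0.57 without wild-type replicate 1. Dancr, at 34.2, 52.2 and 33.3 TPM in wild-type and at 119 and 96.2 TPM in RankCre-ki libraries, did not overlap between groups (log2 fold change 1.43 ± 0.56 SE, limma adjusted p 0.631). Under 1 of its identifiers Snhg4 was listed at 0 for wild-type throughout, while the RankCre-ki libraries held 4.81 and 3.12 TPM, with a limma adjusted p of 0.521. Zfas1, at 198, 47.7 and 51.0 TPM against 158 and 387 TPM, was highest among the wild-type libraries in replicate 1, as Gas5 and Snhg8 were. Snhg14, the host transcript of the Prader-Willi region, was at 445, 153 and 100.04 TPM against 75.6 and 93.2 TPM, with both RankCre-ki libraries below all wild-type libraries (log2 fold change -1.17 ± 0.67 SE, limma p of 0.120).

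Protein-coding snoRNA hosts, many of them ribosomal protein genes, had a median of 0.59 over 27 tested, with 2 higher at a p under 0.05 (6.34% of all genes) and 0 lower (0.529%), and 9 lay above all wild-type libraries (18.8% of all genes). Rps2, a protein of the small ribosomal subunit, was at 1476, 1063 and 1491 TPM in wild-type and at 2766 and 3168 TPM in RankCre-ki libraries (limma adjusted p 0.521). Eef1b2, an elongation factor subunit, was at 484, 489 and 671 TPM against 1216 and 1036 TPM (limma adjusted p 0.564). Rpl4 and Rpl13a, the most abundant of the list, had log2 fold changes of 0.14 and 0.80. The proteins that package snoRNAs had a median of -0.09 over 15 tested, with 0 at a p under 0.05 in either direction. Nop58, a core protein of C/D snoRNPs, was at 339, 343 and 386 TPM against 410 and 192 TPM, and Snu13, which binds the box C/D turn, at 156, 348 and 425 TPM against 322 and 174 TPM.

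Paraspeckle proteins, the partners of Neat1, had a median of 0.52 over 14 tested, with 1 higher at a p under 0.05 (6.34% of all genes). Of the 14, the RankCre-ki values exceeded every wild-type value for 6 and fell short of every one for 1, against 18.8 and 3.71% of all genes. The gene higher at a limma p under 0.05 was Taf15. It was at 0.0168, 0.316 and 7.42 TPM in wild-type and at 16.01 and 31.6 TPM in RankCre-ki libraries (limma adjusted p 0.717). Nono, which binds Neat1 directly, was at 93.3, 164 and 218 TPM against 275 and 149 TPM. Nuclear speckle proteins, found where Malat1 lies, had a median of 0.23 over 16 tested, with 1 higher at a p under 0.05. That 1 was the splicing factor Srsf5, at 130, 217 and 416 TPM against 745 and 495 TPM (limma adjusted p 0.636). Decay factors of the nonsense-mediated pathway had a median of 0.75 over 14 tested, with 0 at a p under 0.05. Among them Eif4a3, a core protein of the exon junction complex, was at 48.3, 122 and 86.6 TPM against 220 and 150 TPM. Other regulatory lncRNAs had a median of 0.72 over 12 tested, with 0 at a p under 0.05, and the median was 0.05 without wild-type replicate 1.

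**Figure D5:**
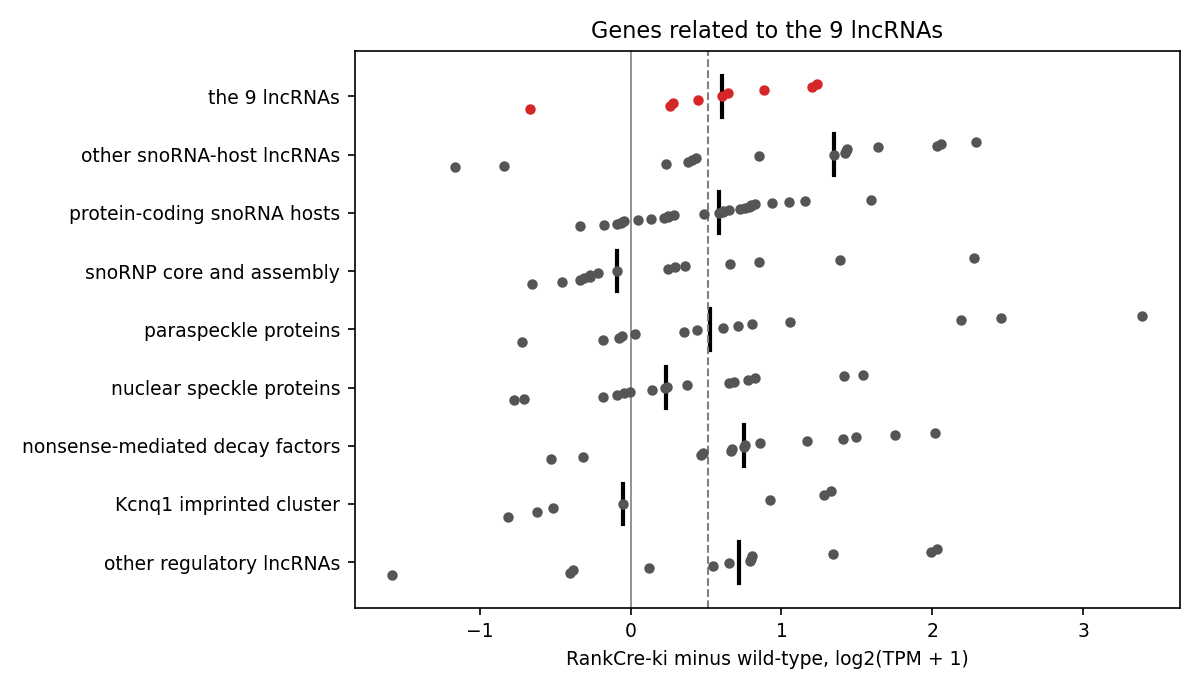
Log2 fold change, RankCre-ki minus wild-type, of each tested gene in the 9 lncRNAs and in the 8 lists of related genes (points, log2(TPM + 1) scale), with the list median as a bar and the median of all tested genes (0.52) as a dashed line. The spread within every list is wider than the distance of its median from the dashed line, and snoRNP proteins have a median of -0.09.

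The genes most like each lncRNA over the 5 libraries were taken by the root mean square distance of profiles of log2(TPM + 1), each centered on its mean, among genes averaging 10 TPM or more. For Malat1 these were Gm37376 at 0.0498, Bcap31 at 0.0505 and Srp9 at 0.0751, where the median gene was at 0.999 from Malat1. For Gas5 they included Thap11 (0.104) and Uqcrh (0.136). For Snhg6 they were Upf3b (0.0643), Hint1 (0.0771) and Ddx46 (0.112), and for Snhg3 they were Dnajc1 (0.0654), Pde4d (0.0829) and Thrap3 (0.0912). Snhg1 was nearest to Atp5a1 (0.0986), Shmt2 (0.130) and Narf (0.134), and Snhg12 to Gclm (0.111), Gcn1 (0.113) and Exosc5 (0.156). Snhg8 was nearest to the platelet factor gene Pf4 (0.162), Eif1ax (0.183) and Ubl5 (0.187), Neat1 to Ergic3 (0.142), Emb (0.157) and Riok3 (0.159), and Kcnq1ot1 to Impa2 (0.185), Ccl27a (0.231) and Neil1 (0.235). The profiles have 5 points that share library preparation, and the nearest of so many genes are close by selection.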

How the data were processed

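The deposited table gives TPM per gene for 5 libraries, each with the same total. Reads had been mapped by the authors to mm10 (gsnap), with featureCounts 2.0.1 for the counts behind their differential test. The program that made the deposited TPM, and whether strand was used, is not given in the sources used here. RNA of sorted cells was reverse transcribed from oligo(dT) with template switching, amplified and tagmented. TPM holds no depth, so no counting error can be attached to a value, and because it is a share of a fixed total, higher levels of some genes lower all others.

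After removal of 92 spike-in rows, 55335 genes were left, of which 24393 were at 0 in all libraries. Genes with at least 1 TPM in 2 libraries (13981) entered lmFit and eBayes (with trend) of limma 3.58.1, run under R 4.3.3. The fit was on log2(TPM + 1), without a covariate, and the added 1 understates the change of low genes. Adjustment was by Benjamini-Hochberg over all tested genes. A gene was called at an absolute log2 fold change over 2 with an adjusted p no higher than 0.1. Groups came from the sample titles. The code was tested on simulated data. Gene positions and transcripts are from GENCODE M21 (GRCm38, the build called mm10), and promoters are from RefSeq (GRCm38.p6), matched by symbol for 7 of the 9 lncRNAs.

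The 9 lncRNAs and the gene lists were chosen with earlier results of these data known. From each list of related genes, the 2 with the highest mean TPM and every gene with an unadjusted p under 0.05 could be named, along with the 3 genes nearest to each lncRNA. A few genes that these rules or the marker lists cover are not reported here. Other genes were named after their values were seen: those that overlap or lie inside the lncRNAs, the further lncRNAs of the closing section, and Csf1r and Eif2s3y, which bear on the labels. Alternatives covered the pseudocount, the filter, the scaling, the replicate block, the name series as a covariate, the trend, the threshold and leaving out each library. The following were added after seeing the data: the sum of Malat1 and Gm37376, and the counts of genes above all wild-type libraries and of listed genes past the threshold under the other settings.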

Additional observations from a re-analysis of the deposited data

How the results depend on the processing

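None of the 9 lncRNAs passed the threshold under any alternative run. All genes past the threshold numbered 0 except for 1 under the replicate block and 0 to 17 when a library was left out, with 17 without RankCre-ki replicate 1 and 8 without RankCre-ki replicate 2, where the lone library is assumed to vary like the others. Of the 9 lncRNAs, 3 had a limma p under 0.05 with the name series as a covariate: Malat1 (limma adjusted p 0.246), Snhg1 (0.419) and Snhg3 (0.429). Under that setting 1409 of 13981 genes had such a p in either direction, against 960 in the main fit. Without wild-type replicate 1 the number was 2, Snhg3 and Snhg8, against 1528 of 12468 genes in either direction. Without wild-type replicate 2 or 3 it was 0. The number above all wild-type libraries, 3 as reported, was 1 after median-ratio scaling (Snhg1, with Malat1 below all wild-type libraries, where 12.2 and 8.88% of all genes lay above and below) and 3 to 6 when a library was left out. The 6 came without wild-type replicate 1 (Gas5, Snhg1, Snhg3, Snhg6, Snhg8 and Kcnq1ot1, against 28.7% of genes). The median of the 9 lncRNAs ranged from 0.10 to 0.79, with 0.10 after median-ratio scaling and 0.79 without wild-type replicate 1.

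Among 153 alternatives of single lncRNAs 141 kept the direction and 12 reversed it. Malat1 stayed between -1.17 and -0.23, Neat1 between 0.36 and 2.79, Snhg1 between 0.70 and 1.93, Snhg3 between 0.38 and 1.08 and Snhg6 between 0.10 and 1.12. Kcnq1ot1 turned to -0.98 with quantile normalization, -0.092 under the replicate block and without wild-type replicate 3, and -0.31 within name series 1. Gas5 turned to -0.23 with median-ratio scaling, -0.033 under the replicate block and without wild-type replicate 3, and -0.56 within name series 1. Snhg8 turned to -0.30 within name series 1, and Snhg12 to -0.23 with median-ratio scaling, -0.11 without RankCre-ki replicate 2 and -0.37 within name series 2. With a library left out, Kcnq1ot1 reached up to 0.95, Snhg12 up to 0.67 and Snhg8 up to 1.35. The cause was not tested.

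Replicate numbers are shared by the groups without a stated pairing, and deviations of same-numbered libraries correlated at -0.380 and -0.195, so they were not treated as pairs. Within the name series only differences of means were computed, with no test, and Kcnq1ot1 had no value under the filter of 5 TPM. Depth is unknown from TPM, and the number of libraries limits the precision.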

Other observations

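Wild-type replicate 1, whose level of Neat1 was low, also stood apart in other lncRNAs, chosen after their values were seen. Snhg5 was listed at 0 TPM there and at 77.8 to 124 TPM in the other 4 libraries. Snhg17 was at 0.0625 TPM there and at 18.4 to 19.2 TPM in the others, which is a narrow range across both groups and both name series. Snhg10 was at 0.371 TPM there and at 6.77 to 31.5 TPM in the others. The imprinted lncRNA Meg3 was at 0.00513 TPM there and at 2.98 to 19.1 TPM in the others. In the same library Gas5, Snhg8 and Snhg14 had their highest values.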
